A study of Mus musculus with 4 samples.

Results

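Transcripts of 9 interferon regulatory factors (IRFs) and signal transducers and activators of transcription (STATs) were followed in differentiating oligodendroglial cells with and without conditional deletion of Zfp276. The genes were Irf1, Irf2, Irf3, Irf5, Irf7, Irf8, Irf9, Stat2 and Stat3, chosen by their gene symbols from 53465 listed genes. Each symbol was listed once, and all 9 were among the 15766 genes that passed the filter on low counts. RNA-Seq was performed on primary (1°) oligodendroglial cell (OGC) cultures from mouse forebrain after 3 days of differentiation. Both genotypes carried the Zfp276 flox/flox allele, in which exons are flanked by loxP sites. Ctrl cultures had no Cre transgene, and Zfp276cko cultures carried Sox10::Cre, which is active in the oligodendroglial lineage from the progenitor stage on. According to the methods of the study, an additional tdTomato reporter allele was crossed into the mice used for these cultures, to identify Zfp276cko newborns. There were 2 libraries per genotype, each from an independent culture preparation of 3 mice aged between 2 and 4 days. Medium for differentiation contained CNTF, a cytokine that signals through Stat3, in both genotypes.

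IRFs are DNA-binding proteins that switch on interferon genes and the genes that interferons induce. Irf3 and Irf7 are activated by kinases downstream of sensors of foreign nucleic acid and then induce type I interferon. Interferon binds its receptor on the same or neighbouring cells, and Janus kinases phosphorylate Stat2, which joins Irf9 in a complex called ISGF3. This complex binds an element with repeated GAAA letters in its target genes, among which are Irf7, Irf9 and Stat2 themselves. Irf1 is induced by interferons and activates genes of antigen presentation, while Irf2 competes with it for the same element. Irf5 and Irf8 are best known from myeloid cells, which include microglia, and Stat3 serves cytokines that use the gp130 receptor chain, such as CNTF.

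The number of counted reads lay between 21068322 and 26599809 per library. Zfp276, the deleted gene, reached 1648 and 2230 normalized counts in the ctrl libraries (replicates 1 and 2) against 490 and 503 in Zfp276cko. Its Zfp276cko mean was 0.256 of the ctrl mean, thus lower but not absent. The study describes the deletion as incomplete. To obtain normalized counts, each library was brought to the average effective library size. The ctrl replicates stood further apart from each other than the Zfp276cko replicates, with a biological coefficient of variation of 0.348 against 0.048. Oligodendroglial identity was visible in all libraries, with Sox10 between 17805 and 20744 normalized counts. Markers of fibroblasts, mural and endothelial cells were summed to 267 CPM (counts scaled to the library total) in ctrl replicate 1 and to between 19.5 and 24.4 in the other 3 libraries. Of the 19 microglia markers listed in the files, 18 passed the filter on low counts. Summed over the list they had 4086 and 2791 CPM in ctrl against 3561 and 3629 in Zfp276cko cultures, although the cultures had been depleted of microglia. Siglech, the remaining one, was at 0 in all 4 libraries. Astrocyte markers were summed to between 1877 and 1977 CPM and neuron markers to between 629 and 1054 CPM, but single markers differed between the ctrl libraries. Ctrl replicate 1 was low in genes of neurons, with Gad1 at 78.4 normalized counts against 2002 in ctrl replicate 2 and Syt1 at 33.2 against 874. Of the astrocyte genes, Gfap was higher in ctrl replicate 1, at 17641 against 8463, and Slc1a3 lower, at 2674 against 6747.

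Of the 9 genes, 5 were separated by genotype, with both Zfp276cko libraries at a higher transcript level than either ctrl library, namely Irf7, Stat2, Irf9, Irf1 and Irf8. In the remaining 4, Irf2, Irf3, Irf5 and Stat3, the genotypes overlapped. Of all genes tested, 26.8% were likewise higher and 23.7% lower in both Zfp276cko libraries than in either ctrl library. The ctrl libraries differed between themselves, and 4 of the 9 genes, Irf7, Stat2, Irf9 and Irf8, were at least 1.5-fold higher in ctrl replicate 1 than in ctrl replicate 2, against 14.9% of all genes. To be called, a gene needed 20 or more normalized counts on average, a log2 fold change of 0.6 or more in size and an adjusted p not above 0.05. By edgeR's quasi-likelihood test 0 of the 9 genes were called, as were 0% of all genes in either direction, the smallest adjusted p of any gene being 0.0725. Before adjustment, 4 of the 9 genes had a p not above 0.05, all higher in Zfp276cko cells, against 8.33% of all genes higher and 7.3% lower. DESeq2 called 3 of the 9 higher, against 3.02% of all genes with an adjusted p, and 0 of the 9 lower, against 2.27%. These were Stat2, Irf9 and Irf1. The median log2 fold change of the 9 genes was 0.747, whereas that of all genes tested was -0.00125. Oligodendrocyte markers, summed to 14720 and 20420 CPM in ctrl and to 11170 and 11390 in Zfp276cko libraries, differed in the opposite direction, and their part in the values of the 9 genes was not tested. With 2 libraries against 2, an exact permutation test of a single gene cannot go below a two-sided p of 0.333.

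**Figure D1:**
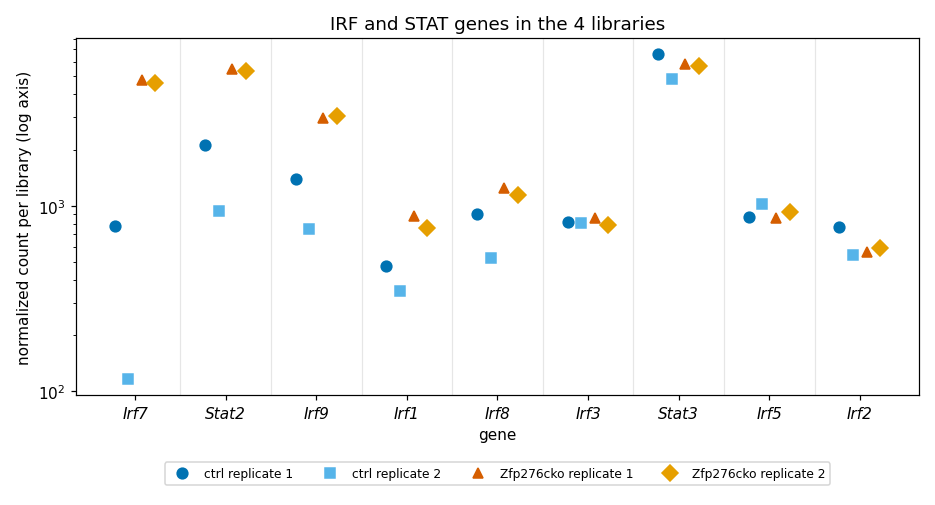
Normalized counts (log axis) of the 9 IRF and STAT genes in each of the 4 libraries, with 1 symbol per library and no averaging. For Irf7, Stat2, Irf9, Irf1 and Irf8 both Zfp276cko symbols lie above both ctrl symbols, and for Irf7 the ctrl libraries themselves are 6.75-fold apart.

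The promoters of 4 of the genes separated by genotype and of 1 whose genotypes overlapped are shown for the letters that IRFs and STATs are known to bind. Sequences are RefSeq promoters of build GRCm38.p6 (mm10), from 250 bases before to 50 bases after a transcript start, written 5′ to 3′ along the gene. All 9 genes matched the table, with 12 start sites. Of the start sites of Irf1 and of Irf8, the one that holds a match is shown. Searched were a GAAA followed after 2 bases of any kind by another GAAA, the core of the element of IRFs and ISGF3, on both strands, and TTCNNNGAA, the element of STAT dimers, which reads the same on both strands. Matches are in capitals.
Irf7 promoter, chr7:141266375-141266674, minus strand: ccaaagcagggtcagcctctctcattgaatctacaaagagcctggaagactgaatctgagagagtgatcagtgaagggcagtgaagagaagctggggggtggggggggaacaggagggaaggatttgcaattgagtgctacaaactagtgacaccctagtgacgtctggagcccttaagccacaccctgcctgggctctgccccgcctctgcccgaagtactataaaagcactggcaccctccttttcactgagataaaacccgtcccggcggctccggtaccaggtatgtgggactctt
Stat2 promoter, chr10:128270248-128270547, plus strand: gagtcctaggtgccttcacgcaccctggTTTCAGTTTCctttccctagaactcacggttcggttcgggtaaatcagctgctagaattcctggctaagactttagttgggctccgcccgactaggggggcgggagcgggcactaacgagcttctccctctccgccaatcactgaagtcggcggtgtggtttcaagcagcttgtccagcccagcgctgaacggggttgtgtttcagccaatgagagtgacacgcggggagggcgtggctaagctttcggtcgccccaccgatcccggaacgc
Irf1 promoter, chr11:53769764-53770063, plus strand: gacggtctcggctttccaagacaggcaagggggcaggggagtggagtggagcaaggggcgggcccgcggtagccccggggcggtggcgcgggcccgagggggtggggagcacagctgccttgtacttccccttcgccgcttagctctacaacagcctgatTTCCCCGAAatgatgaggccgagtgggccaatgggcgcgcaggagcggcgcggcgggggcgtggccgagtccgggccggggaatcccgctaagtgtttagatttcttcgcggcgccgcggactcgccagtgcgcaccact
Irf8 promoter, chr8:120736108-120736407, plus strand: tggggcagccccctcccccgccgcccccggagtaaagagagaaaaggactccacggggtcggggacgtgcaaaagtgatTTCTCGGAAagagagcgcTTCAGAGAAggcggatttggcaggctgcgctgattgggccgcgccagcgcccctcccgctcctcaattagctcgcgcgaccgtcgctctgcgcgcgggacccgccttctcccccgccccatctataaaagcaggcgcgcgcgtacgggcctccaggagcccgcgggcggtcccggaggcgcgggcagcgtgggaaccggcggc
Irf2 promoter, chr8:46739495-46739794, plus strand: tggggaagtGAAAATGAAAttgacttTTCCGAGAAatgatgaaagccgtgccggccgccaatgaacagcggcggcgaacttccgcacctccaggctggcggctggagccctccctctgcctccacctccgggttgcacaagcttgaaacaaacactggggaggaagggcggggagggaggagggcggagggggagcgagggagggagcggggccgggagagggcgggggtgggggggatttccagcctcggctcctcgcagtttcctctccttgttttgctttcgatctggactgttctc
The IRF core occurred in the promoters of 2 of the 9 genes, Irf2 and Stat2, and in 3.43% of all 32817 promoters of this length. A gene was counted if any of its start sites had a match, whereas the percentages count single promoters. The STAT element occurred in those of 3 genes, Irf1, Irf2 and Irf8, and in 8.29% of all promoters. Counted from the start site, the match of Irf1 began at position -90, those of Irf8 at -171 and -153, that of Stat2 at -222 and those of Irf2 at -241 for the IRF core and -224 for the STAT element. Irf2, whose transcript level overlapped between the genotypes, thus had both sets of letters, as do 0.451% of all promoters. Irf7, with the largest difference of the 9, had neither in these 300 bases, nor did Irf9, Irf3, Irf5 and Stat3. A match describes letters and not a bound site.

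Irf7 (chromosome 7 of mm10, 141262706 to 141266481, minus strand), the regulator that amplifies type I interferon production, differed the most. It had 782 and 116 normalized counts in the ctrl libraries (replicates 1 and 2) against 4756 and 4617 in the Zfp276cko libraries. Zfp276cko cells averaged 4687 ± 98.2 (SD, n = 2), which is 10.4-fold the ctrl mean of 449 ± 471 (SD, n = 2). Both Zfp276cko libraries were thus far above both ctrl libraries, yet the ctrl replicates also differed by 6.75-fold. The log2 fold change was 3.39 (standard error 0.93, quasi-likelihood adjusted p = 0.231 in edgeR), the 50th highest of all genes tested. Its unadjusted p of 0.0196 ranked 1333rd in the model fitted across all genes. Ctrl replicate 1 had the higher Irf7 level. In the same library fibroblast, mural and endothelial markers were summed to 267 CPM, and neuronal Gad1 and Syt1 were low. The ratio of ctrl replicate 1 to replicate 2 ranged from 0.389 (Aif1) to 7.88 (P2ry12) over the tested microglia markers. Over the targets of ISGF3 listed below it ranged from 0.982 (Mx2) to 33.8 (Oas2). The part of different cells in the value of Irf7 was not tested. Against the higher ctrl replicate the Zfp276cko mean was 5.99-fold, and against the lower one 40.4-fold. The log2 fold change moved to 5.34 without ctrl replicate 1 and to 2.57 without ctrl replicate 2. In DESeq2 it was 3.36 (adjusted p = 0.0658), and the likelihood ratio test of edgeR gave an adjusted p of 0.00882.

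Stat2 and Irf9 encode partners in ISGF3, and their transcripts were higher in Zfp276cko cells side by side. Stat2 (chromosome 10, 128270559 to 128292849, plus strand), which bears 1 IRF core in the promoter shown above, had 2126 and 936 normalized counts in ctrl against 5511 and 5368 in Zfp276cko cells. The means of 1531 ± 842 and 5440 ± 101 (SD, n = 2 each) are 3.55-fold apart. Its log2 fold change was 1.83 (standard error 0.42, quasi-likelihood adjusted p = 0.189 in edgeR), and that of DESeq2 was 1.81 (adjusted p = 0.000306). Irf9 (chromosome 14, 55603571 to 55610030, plus strand) had 1390 and 747 normalized counts in ctrl against 2982 and 3059 in Zfp276cko cells. Here the means were 1069 ± 455 and 3020 ± 54.5 (SD, n = 2 each), a ratio of 2.83. The log2 fold change was 1.5 (standard error 0.32, quasi-likelihood adjusted p = 0.181 in edgeR and 0.000589 from DESeq2). In both genes the differences between genotypes exceeded those between the ctrl replicates, of which replicate 1 was 2.27-fold higher for Stat2 and 1.86-fold higher for Irf9. Leaving out ctrl replicate 1 moved the log2 fold changes to 2.54 for Stat2 and 2.02 for Irf9, and leaving out ctrl replicate 2 moved them to 1.34 and 1.11.

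Irf1 (chromosome 11, 53770014 to 53778374, plus strand) showed a smaller difference, with less spread between the ctrl replicates. It had 473 and 345 normalized counts in the ctrl libraries (replicates 1 and 2) against 881 and 754 in the Zfp276cko libraries. The ratio of the means, 409 ± 89.9 and 818 ± 89.8 (SD, n = 2 each), was 2.00. Irf1, whose log2 fold change was 1.00 (standard error 0.21), had the smallest p of the 9 genes, at an unadjusted value of 0.00743 and an adjusted p of 0.178 from edgeR's quasi-likelihood test. DESeq2 gave an adjusted p of 0.00751. Omitting ctrl replicate 1 gave 1.24 and omitting ctrl replicate 2 gave 0.78. Irf2 (chromosome 8, 46739732 to 46847458, plus strand), the competitor of Irf1, had 769 and 544 normalized counts in ctrl against 566 and 591 in Zfp276cko cells. Both Zfp276cko libraries thus lay between the ctrl libraries, and the log2 fold change was -0.18 (standard error 0.21, edgeR adjusted p = 0.723). Its sign depended on the ctrl library, at 0.092 without replicate 1 and -0.42 without replicate 2.

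Irf3 (chromosome 7, 44997648 to 45002848, plus strand), which is present before any stimulus and is activated by phosphorylation, was the most even of the 9. It had 816 and 811 normalized counts in ctrl against 858 and 792 in Zfp276cko cells. At 0.02, its log2 fold change (standard error 0.11, edgeR adjusted p = 0.950) was within the spread of the replicates. Stat3 (chromosome 11, 100885098 to 100939540, minus strand) had 6593 and 4859 normalized counts in ctrl against 5835 and 5714 in Zfp276cko cells, again with both Zfp276cko libraries between the ctrl libraries. The log2 fold change of Stat3 was 0.01 (standard error 0.18, edgeR adjusted p = 0.983), and became 0.25 without ctrl replicate 1 but -0.20 with ctrl replicate 2 omitted. For Irf3 every fit stayed between -0.034 and 0.079.

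**Figure D2:**
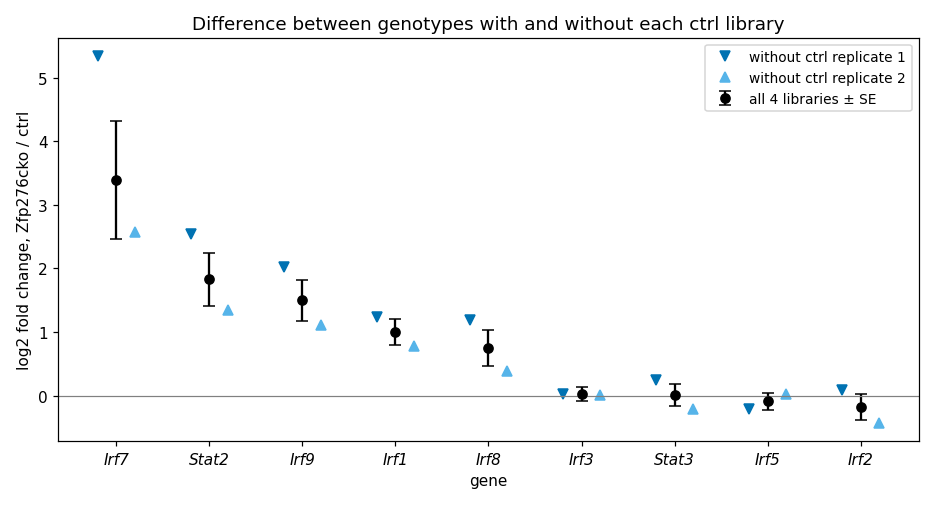
Log2 fold changes (Zfp276cko over ctrl) of the 9 genes from edgeR, with all 4 libraries (black circles, bars of 1 standard error) and without either ctrl library (triangles). Irf7 spans 2.57 to 5.34 with the ctrl library left out, all values of Irf7, Stat2, Irf9, Irf1 and Irf8 lie above 0, and those of Stat3, Irf5 and Irf2 lie on both sides of 0.

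Irf8 (chromosome 8, 120736358 to 120756694, plus strand), a factor that shapes myeloid cells together with Spi1, had 899 and 523 normalized counts in ctrl against 1245 and 1141 in Zfp276cko cells. The means of 711 ± 266 and 1193 ± 73.6 (SD, n = 2 each) differ by 1.68-fold, which is less than the 1.72-fold between the ctrl replicates. Its log2 fold change was 0.75 (standard error 0.29, edgeR adjusted p = 0.335 and 0.226 from DESeq2), and leaving out ctrl replicate 1 or 2 gave 1.19 or 0.39. Irf5 (chromosome 6, 29526625 to 29541871, plus strand), which drives inflammatory cytokines downstream of Toll-like receptors, did not follow Irf8. It had 873 and 1029 normalized counts in ctrl against 860 and 924 in Zfp276cko cells, and its log2 fold change was -0.09 (standard error 0.13, edgeR adjusted p = 0.776). Irf5 was the only one of the 9 genes that was lower in ctrl replicate 1 than in ctrl replicate 2, with a ratio of 0.848.

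Genes that are expressed in myeloid cells were set beside Irf8 and Irf5, since Sox10::Cre is driven by a gene of the oligodendroglial lineage. In bulk cultures, fewer cells of a type and less RNA per cell cannot be told apart. Of the 18 tested microglia markers, 6 lay above both ctrl libraries in both Zfp276cko libraries, 1 lay below and 11 overlapped, with a median log2 fold change of 0.111. Of all genes tested, 26.8% lay above and 23.7% below. By DESeq2, 2 markers were called higher, Ptprc and Cd68, and 1 lower, Fcrls, against 3.02% and 2.27% of all genes with an adjusted p. Spi1, which binds DNA together with Irf8, had 1665 and 2135 normalized counts in ctrl against 2306 and 2203 in Zfp276cko cells. At 0.25, its log2 fold change had an adjusted p of 0.49 from edgeR. Csf1r, the receptor for the survival factor of microglia, had 11409 and 1850 normalized counts in ctrl against 3085 and 3016 in Zfp276cko cells. For Ptprc, the common leukocyte antigen, these were 3018 and 3101 against 5092 and 5264. The markers thus did not move as a block. Irf8 was higher in both Zfp276cko libraries, like Ptprc and Cd68, but between the ctrl replicates it differed in the direction of Csf1r and Cd68. The ratio of ctrl replicate 1 to replicate 2 was 1.72 for Irf8, 6.17 for Csf1r, 1.71 for Cd68 and 0.973 for Ptprc. Of the 7 listed partners and targets of Irf8, 3 lay above both ctrl libraries and 4 overlapped, with a median of 0.0522. Whether a different content of myeloid cells has a part in the values of Irf8 and Irf5 was not tested.

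**Figure D3:**
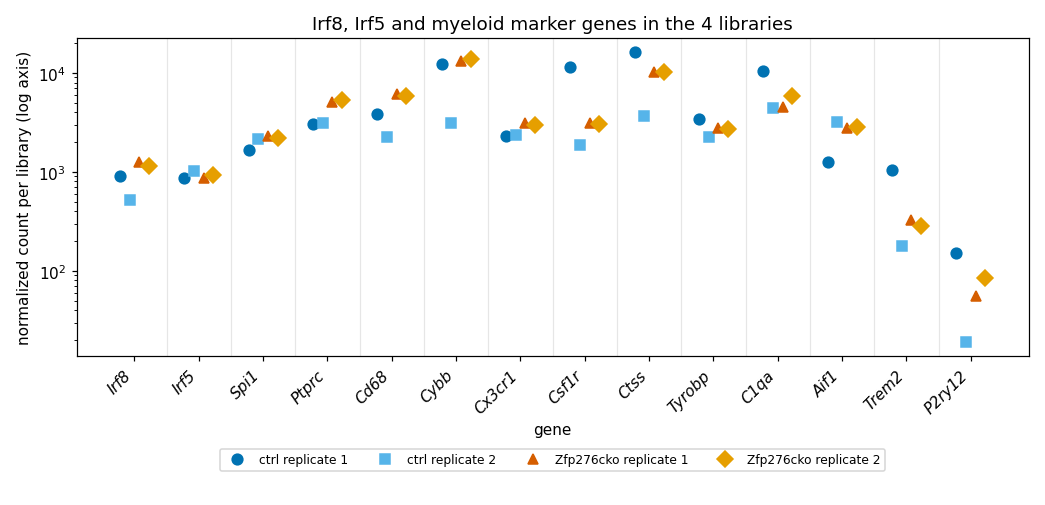
Normalized counts (log axis) of Irf8, Irf5 and 12 genes of myeloid cells in each of the 4 libraries. Ptprc and Cd68 are higher in both Zfp276cko libraries, whereas Csf1r, C1qa, Trem2 and P2ry12 are highest in ctrl replicate 1, where Csf1r reaches 11409.

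Per exon length, the make-up of the 9 genes differed between the genotypes. Other members of both families, such as Stat6, were left out of the sums, shares and ranks. Levels between genes were compared as CPM divided by the kilobases of annotated exons. Summed over the 9 genes, these levels came to 95 and 70.1 in ctrl against 191 and 187 in Zfp276cko cells. Stat3 held the highest level in both ctrl libraries, at 27.4 and 21.5, or 28.8% and 30.7% of the sum. In both Zfp276cko libraries Irf7 stood first with 55.1 and 53.5, or 28.8% and 28.6% of the sum, followed by Stat2, with 40.7 and 39.6. Stat3 then came at rank 3 with 26.8 and 26.3, close to its level in ctrl replicate 1. Irf9 followed with 24.2 and 24.9, close to Stat3, and the order of all 9 genes was the same in both Zfp276cko libraries. In ctrl the order was less fixed, as Irf7 was at rank 6 with 8.19 in replicate 1 and at rank 9 with 1.30 in replicate 2. Irf2 was lowest in both Zfp276cko libraries, at 3.35 and 3.50.

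**Figure D4:**
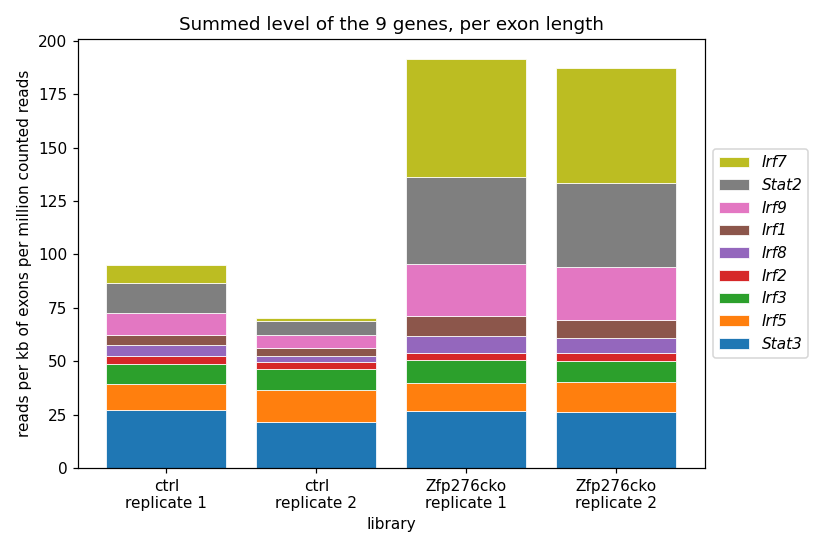
Stacked levels of the 9 genes per library, in CPM per kilobase of exons, with 1 colour per gene. The sum is 95 and 70.1 in ctrl and 191 and 187 in Zfp276cko libraries, and the blocks of Irf7, Stat2 and Irf9 make up most of the difference in height.

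Further members of both families were measured as well. Stat6, which serves interleukin-4, had 908 and 731 normalized counts in ctrl against 1119 and 1132 in Zfp276cko cells. Its log2 fold change was 0.46, with an adjusted p of 0.269 from edgeR, and those of Stat5a and Stat5b were 0.63 and 0.20. Each of these was higher in the Zfp276cko libraries without overlap, as were 26.8% of all genes tested, and DESeq2 called none of them. Irf4 had 9 and 9 counts in ctrl against 4 and 6 in Zfp276cko cells, and Stat4 had between 0 and 3 counts per library. Neither passed the filter on low counts.

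Upstream of the IRFs, receptors, kinases and sensors were measured. Of 14 receptor chains and Janus kinases, 3 lay above both ctrl libraries, 3 below and 8 overlapped, with a median log2 fold change of -0.175. Of all genes tested, 26.8% lay above and 23.7% below both ctrl libraries. Ifnar1 and Ifnar2, the chains of the type I interferon receptor, had -0.17 and -0.23. For the receptor of CNTF, Cntfr had 0.46, Lifr -0.52 and the shared chain Il6st -0.25, with 0 of 14 called by DESeq2. Of 16 sensors, adaptors and kinases that lead to Irf3, Irf5 and Irf7, 11 lay above both ctrl libraries and 5 overlapped, with a median of 0.311. DESeq2 called 3 of these higher, against 3.02% of all genes with an adjusted p. They were the RNA sensors Ifih1, Ddx58 and Tlr3, with log2 fold changes of 2.72, 2.45 and 2.06. Mavs, the adaptor of Ifih1 and Ddx58, had 0.03, and Tbk1, the kinase of Irf3, had 0.29. Of 8 ligands, 6 passed the filter on low counts. Of these 4 lay above both ctrl libraries, 1 below and 1 overlapped, with a median of 0.806 and 0 called by DESeq2. Ifnb1 had 1 and 0 counts in ctrl against 28 and 26 in Zfp276cko cells, and Ifng had at most 1 count per library. Il6, which acts through Stat3, had 15.4 and 10.1 normalized counts in ctrl against 38 and 40.4 in Zfp276cko cells (quasi-likelihood adjusted p = 0.186 in edgeR). Of other ligands that use the gp130 chain, Clcf1 and Osm had log2 fold changes of 0.92 and 0.69, but Lif and Ctf1 had -0.15 and -0.19.

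Downstream, the targets of each factor were followed in lists with 1 factor or complex each, chosen with earlier results of these data known. Of all genes tested, 26.8% lay above both ctrl libraries, and DESeq2 called 3.02% of those with an adjusted p higher. All 12 targets of ISGF3 were tested, and 11 of them exceeded both ctrl libraries. The median log2 fold change was 3.83, and DESeq2 called 10 higher. The 1 whose genotypes overlapped was Ifi44, whose ctrl replicates had 818 and 28.1 normalized counts. Of the 12 targets of Irf1, 10 passed the filter, all of these lay above both ctrl libraries, and 9 were called higher by DESeq2. Their median was 2.44 and thus above the 1.00 of Irf1 itself. Tap1, which carries peptides to MHC class I molecules, had 351 and 222 normalized counts in ctrl against 1521 and 1457 in Zfp276cko cells. These genes also respond to other factors of interferon signalling, so that the lists are not separate readouts. Of the 12 targets of Stat3, 9 lay above both ctrl libraries and 3 overlapped, with a median of 0.736 and 5 called higher by DESeq2. Pim1 (log2 fold change 1.67), Socs3 (1.46) and Lcn2 (1.27) were among the 5, while Fos and Gfap had -0.02 and -0.05. By edgeR's quasi-likelihood test, 0 genes of these lists were called.

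Inhibitors of the pathway were divided. Of all genes tested, 26.8% lay above and 23.7% below both ctrl libraries. DESeq2 called 3.02% of all genes with an adjusted p higher and 2.27% lower. Of 13 inhibitors and phosphatases, 7 lay above both ctrl libraries, 3 below and 3 overlapped, with a median log2 fold change of 0.157. Usp18, which blocks signalling at the interferon receptor, had 1044 and 243 normalized counts in ctrl against 9317 and 8628 in Zfp276cko cells (log2 fold change 3.80). Socs1 and Socs3, inhibitors of Janus kinases, had 2.21 and 1.46, and DESeq2 called all 3 higher. Usp18 is also counted among the targets of ISGF3, and Socs3 among those of Stat3. Ptpn11, a phosphatase with several roles in cytokine signalling, was the gene that DESeq2 called lower, with 12038 and 11873 normalized counts in ctrl against 7341 and 7093 in Zfp276cko cells. The Pias proteins, which restrain STATs in the nucleus, had log2 fold changes between -0.14 and 0.21. Oligodendrocyte markers went the other way, with 10 of 12 below both ctrl libraries and 9 called lower by DESeq2.

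**Figure D5:**
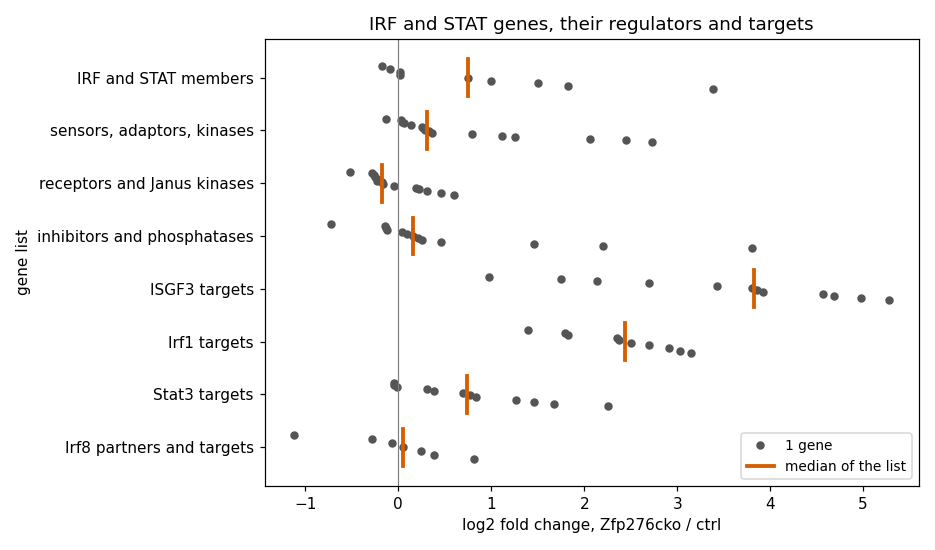
Log2 fold changes (Zfp276cko over ctrl) from edgeR of each tested gene (grey points) in the list of the 9 genes (labelled IRF and STAT members) and in 7 lists of related genes, with the median of each list as an orange bar. The targets of ISGF3 and Irf1 have the highest medians, 3.83 and 2.44, and the receptors and Janus kinases the lowest, -0.175.

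Genes whose pattern over the 4 libraries was closest to each of the 9 were found by the Euclidean distance between log2 normalized counts centred on their mean. For Irf7 these were H2-T23, a nonclassical MHC class I gene, and Zbp1, a sensor of Z-form nucleic acid, at distances of 0.287 and 0.374. H2-T23 had 754 and 113 normalized counts in ctrl against 3808 and 3629 in Zfp276cko cells, and so repeated the gap between the ctrl replicates. For Stat2 they were Trim25 (0.119), a ubiquitin ligase that activates Ddx58, and Adamtsl5 (0.152), and for Irf9 Tmem106a (0.121) and Cd38 (0.159). Next to Irf8 lay Ikbke (0.0543), a kinase of Irf3 and Irf7, and Kcnj6 (0.0655), and next to Irf1 Neurl2 (0.0812) and Apoe (0.0852). Apoe, the lipid carrier, had 30593 and 22682 normalized counts in ctrl against 54490 and 50557 in Zfp276cko cells. The remaining 4 genes had closer neighbours, such as Scarb1 for Stat3 (0.00908), Gtf2ird2 for Irf3 (0.00704), Bag4 for Irf5 (0.00608) and Rab3d for Irf2 (0.0183). The distance was not scaled by the size of the differences, so it tends to be smaller for genes that varied little. With 4 libraries such likeness is a description.

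Annotated exons of 6 of the 9 genes overlap those of another gene. The largest overlap was that of Irf5 with Tnpo3 on the opposite strand, over 411 nt or 14.1% of its exons. Between Irf7 and Phrf1 it was 45 nt, or 1.2%. The strand setting of the counting is not given in the sources used here, so reads in stretches overlapped on the opposite strand cannot be assigned with certainty. Irf9 and Rnf31 overlap on the same strand, over 123 nt or 2.3% of the exons of Irf9. There a strand setting would not separate the reads. For Irf2, Irf8 and Stat2 no exonic overlap was annotated.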

How the data were processed

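RNA-Seq libraries of 1° mouse OGC cultures (2 ctrl, 2 Zfp276cko) were stranded and single-end. Per the labels and the methods of the study, STAR 2.5.4a served the authors to map reads to mm10, and unique mappings were then counted per Ensembl gene. The counter is HTSeq in the methods and featureCounts 1.5.1 in the submitters' processing notes. The deposited counts are whole numbers without normalization. Counts were kept by filterByExpr, normalized with TMM and compared between genotypes with the quasi-likelihood test of edgeR 4.0.16 and Benjamini-Hochberg adjustment (R 4.3.3). DESeq2 1.42.0, limma 3.58.1 voom and edgeR's likelihood ratio test were alternatives, besides other filters, size factors, a replicate block and the omission of each library. The limits of fold change and mean count are those of the study. Standard errors were derived from the test statistic. Scripts were tested on simulated data.

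Members and gene lists were chosen with earlier results of these data known. Named are the 9 genes, Zfp276, genes of the lists at the median or extremes or acting directly with one of the 9, and for each of the 9 the 2 nearest genes in pattern. Sox10, Siglech, Ptprc, Aif1, C1qa, Trem2, P2ry12, Mx2, Oas2, Tap1, Gad1, Syt1, Slc1a3, Pim1, Lcn2 and Fos are list genes chosen after their values were seen. The same holds for Il6, Lif, Ifng, Tlr3, Ddx58, Mavs, Socs1, Socs3, Irf4 and Stat4. Positions and exon lengths came from GENCODE M21 (GRCm38), which is not the annotation of the counting. Of the microglia and Irf8 lists, 1 gene is not analysed here, and some genes of the families are not reported here. P-values rest on the spread between 2 culture preparations per genotype, pooled over both genotypes and moderated across genes. They do not measure the spread of each genotype on its own.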

Additional observations from a re-analysis of the deposited data

How the results depend on the processing

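Irf7, Stat2, Irf9, Irf1 and Irf8 kept their direction in all 11 alternatives for which a fold change was fitted. Over single omitted libraries, Irf2 ranged from -0.42 to 0.092 (the latter without ctrl replicate 1), Irf3 from -0.034 (without Zfp276cko replicate 1) to 0.079, Irf5 from -0.20 to 0.018 (without ctrl replicate 2) and Stat3 from -0.20 (without ctrl replicate 2) to 0.25. Stat3 was also -0.00316 with the size factors of DESeq2 and -0.00538 in DESeq2. The quasi-likelihood test called 0 of the 9 genes. This became 3 in DESeq2, 4 in the likelihood ratio test and 4 with an unadjusted p. Over all genes, 0 were called higher and 0 lower. These became 449 and 338 in DESeq2, 428 and 268 in the likelihood ratio test, and 806 and 476 with an unadjusted p and the same limits. Without a filter on low counts 8 were called higher. In limma voom both counts were 0. When 1 library at a time was omitted, the number called ranged from 0 to 5 for the 9 genes, from 0 to 1792 for higher and from 0 to 1286 for lower genes. The high ends came without a ctrl library, where the lone ctrl library is assumed to vary like the Zfp276cko libraries. Without ctrl replicate 1, Irf7, Stat2, Irf9, Irf1 and Irf8 were called, and without ctrl replicate 2 all of these but Irf8. With a replicate block 0 genes were called, 0 of the 9 among them. Deviations of same-numbered libraries correlated with 0.0067. With 2 libraries per genotype, and Zfp276cko libraries that hardly differ, this cannot show whether same-numbered libraries were prepared together. Counts of the 9 genes ranged from 103 to 6651 per library.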
